A study of Mus musculus with 5 samples.

Results

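The peaks described here are those of mouse chromosome 11 in 3 peak lists from chromatin immunoprecipitation sequencing (ChIP-seq), chosen only by the chromosome named in the first column of each list. Chromosome 11 held 1799 of the 23244 ZHX1 peaks of control cells, 1295 of the 14662 hnRNPA1 peaks of control cells and 4839 of the 51545 hnRNPA1 peaks of Zhx1-KO cells, 7933 of 89451 peaks in all. The cells were cardiac progenitors (CP) differentiated in culture from 46C, a mouse embryonic stem cell line, either unedited (46C-Ctrl, here called control) or with the Zhx1 gene deleted by CRISPR/Cas9 (Zhx1-KO). The sources do not say whether more than 1 knockout clone was used. Each ChIP had 1 library, and the 2 input libraries were not analysed here. The comparison of the lists bears on where ZHX1 and hnRNPA1 lie together and where hnRNPA1 lies without ZHX1. The lists give positions and the name of a gene but no height, score or read number, so read depth is unknown, and with 1 library per group no difference between lists could be tested against replicates. The chromosome was picked with its peak numbers known, so its density is a description.

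In ChIP-seq, DNA crosslinked to a protein is pulled down with an antibody and sequenced, and a peak is a stretch where the recovered fragments pile up. ZHX1 is a nuclear protein with zinc fingers and homeodomains, known to bind the A subunit of the transcription factor NF-Y and to act as a repressor in some cells. hnRNPA1 is an abundant RNA-binding protein that regulates splicing, favours UAGGG-like RNA motifs, and can be crosslinked to DNA through the RNA or protein it holds. Mouse chromosome 11 is rich in genes and carries the Hoxb cluster, the type I keratin cluster, the skeletal myosin heavy chain cluster, many olfactory receptor genes and T-box genes such as Tbx2 and Tbx4.

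The sequences below carry the main finding on agreement between the lists, because they are stretches that 2 or 3 lists cover at once. Only 3 positions of chromosome 11 were covered by all 3 lists, and the sequence of 2 of them, in Sfi1 and Dhx8, occurs more than once in the genome. By the median number of genomic occurrences of their 32-base words, the Sfi1 peaks had 2 copies in each list, the Dhx8 peaks 5 in both control lists and 2 in Zhx1-KO, and the Drg1 peaks 1 in each. The capitals mark the bases common to the overlapping peaks and the lower case bases flank them. The Dhx8 and Psmd11 stretches were longer than 300 bases, so only their middle is shown, and the Dock2 sequence is the common stretch without flanks. All are from the GRCm38 assembly (RefSeq), forward strand, 5′ to 3′. The first lies in an intron of Sfi1, which encodes a centrosomal centrin-binding protein, at chr11:3159516-3159805. The second carries the name Sfi1 in the lists but lies in an intron of Drg1, a GTP-binding protein gene, at chr11:3199637-3199891. The third lies in an intron of Dhx8, which encodes an RNA helicase of the spliceosome, at chr11:101740304-101740603.
Sfi1 intron, all 3 lists: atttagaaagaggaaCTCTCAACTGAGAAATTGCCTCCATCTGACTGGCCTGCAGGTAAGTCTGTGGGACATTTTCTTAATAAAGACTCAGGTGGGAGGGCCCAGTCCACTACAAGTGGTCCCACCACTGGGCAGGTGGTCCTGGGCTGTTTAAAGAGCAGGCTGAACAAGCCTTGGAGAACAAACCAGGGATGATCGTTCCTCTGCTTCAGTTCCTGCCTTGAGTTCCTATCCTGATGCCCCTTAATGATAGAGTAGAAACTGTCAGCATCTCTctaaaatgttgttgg
Drg1 intron, all 3 lists: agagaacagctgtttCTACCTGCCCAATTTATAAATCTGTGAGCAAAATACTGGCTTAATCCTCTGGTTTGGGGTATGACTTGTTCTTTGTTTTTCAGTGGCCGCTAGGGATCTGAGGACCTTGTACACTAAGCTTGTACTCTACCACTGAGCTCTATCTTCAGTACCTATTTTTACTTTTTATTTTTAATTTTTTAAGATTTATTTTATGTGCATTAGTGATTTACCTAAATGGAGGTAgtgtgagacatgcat
Dhx8 intron, all 3 lists: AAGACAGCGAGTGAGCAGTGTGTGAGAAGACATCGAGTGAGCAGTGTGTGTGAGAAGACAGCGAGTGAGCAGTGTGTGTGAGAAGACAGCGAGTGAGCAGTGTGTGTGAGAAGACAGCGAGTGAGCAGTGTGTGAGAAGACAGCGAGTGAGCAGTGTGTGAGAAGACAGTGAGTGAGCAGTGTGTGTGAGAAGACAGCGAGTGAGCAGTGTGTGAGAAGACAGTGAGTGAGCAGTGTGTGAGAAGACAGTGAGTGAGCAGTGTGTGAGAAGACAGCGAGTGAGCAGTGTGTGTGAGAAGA

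Each of the next 4 stretches is an example from 1 pair of lists. The Gas7 stretch (chr11:67588619-67588901, intron, 2.06 kb from a start site) was held by ZHX1 and hnRNPA1 in control cells, and Gas7 encodes a growth-arrest protein of the cytoskeleton. The Psmd11 stretch (chr11:80428736-80429035, intron, 0.196 kb from the start site) was held by hnRNPA1 in both genotypes, and Psmd11 encodes a proteasome lid subunit. The Dock2 stretch (chr11:34681792-34682080, intron) and the Hoxb2 stretch (chr11:96353180-96353412, coding exon) were held by ZHX1 in control cells and hnRNPA1 in Zhx1-KO cells. The lists name the Hoxb2 stretch for Hoxb3os, and it was chosen after its values were seen. Dock2 encodes an exchange factor for Rac in blood cells, and Hoxb2 is a homeobox gene of the anterior Hoxb cluster.
Gas7: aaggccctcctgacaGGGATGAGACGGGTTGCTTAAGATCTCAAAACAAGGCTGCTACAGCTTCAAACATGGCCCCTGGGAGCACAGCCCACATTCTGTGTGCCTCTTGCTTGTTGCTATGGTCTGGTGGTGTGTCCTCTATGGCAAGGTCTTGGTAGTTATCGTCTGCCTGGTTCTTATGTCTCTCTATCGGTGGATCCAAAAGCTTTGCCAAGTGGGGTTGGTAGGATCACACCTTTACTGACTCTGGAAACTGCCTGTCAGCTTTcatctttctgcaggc
Psmd11: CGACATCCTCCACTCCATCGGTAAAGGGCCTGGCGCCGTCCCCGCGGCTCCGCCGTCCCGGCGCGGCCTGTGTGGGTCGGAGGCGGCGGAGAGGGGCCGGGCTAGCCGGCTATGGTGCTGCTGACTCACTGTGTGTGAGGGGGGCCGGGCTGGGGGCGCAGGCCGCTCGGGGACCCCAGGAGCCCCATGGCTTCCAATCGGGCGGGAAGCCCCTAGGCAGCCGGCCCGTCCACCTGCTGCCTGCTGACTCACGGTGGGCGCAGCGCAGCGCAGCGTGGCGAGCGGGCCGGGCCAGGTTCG
Dock2: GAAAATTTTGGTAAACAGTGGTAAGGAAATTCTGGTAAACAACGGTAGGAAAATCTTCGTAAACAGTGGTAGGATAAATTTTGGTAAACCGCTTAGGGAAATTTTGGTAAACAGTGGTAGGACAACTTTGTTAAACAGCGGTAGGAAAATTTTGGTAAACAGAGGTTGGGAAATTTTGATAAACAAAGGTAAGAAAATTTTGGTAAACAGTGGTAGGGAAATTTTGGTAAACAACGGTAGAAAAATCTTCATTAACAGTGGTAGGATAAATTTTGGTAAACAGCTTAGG
Hoxb2: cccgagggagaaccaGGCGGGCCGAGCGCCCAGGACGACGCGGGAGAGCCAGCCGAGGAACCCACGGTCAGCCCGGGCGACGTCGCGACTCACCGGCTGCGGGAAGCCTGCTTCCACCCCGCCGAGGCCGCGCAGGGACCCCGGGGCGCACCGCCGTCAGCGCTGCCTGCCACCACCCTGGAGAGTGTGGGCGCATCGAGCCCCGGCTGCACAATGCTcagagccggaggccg
The Dhx8 sequence was a tandem repeat, with 78.1% of its bases equal to the base 26 positions further on. The Dock2 sequence was another, with 73.9% of its bases equal to the base 48 positions on, and it held TAGGG or its complement CCCTA 2 times. The other 5 were not repetitive in this sense, with at most 38.8% equal bases at any shift of up to 60 positions. The Psmd11 and Hoxb2 stretches were rich in G and C, at 75% and 75.5% GC, with 33 and 30 CpG dinucleotides. They were not typical of the shared positions of their pairs, which had a median of 52.2% and 50.5% GC by the first list's peaks. The Drg1 stretch was the poorest of the 7 except Dock2, at 36.5% GC against 34.3%.

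Peaks of chromosome 11 were denser than those of every other autosome in all 3 lists. Control ZHX1 had 15.2 peaks per Mb of sequence on chromosome 11 and 9.26 per Mb over the other 18 autosomes, whose own values ran from 7.59 to 10.8. Control hnRNPA1 had 10.9 peaks per Mb on chromosome 11 and 5.79 elsewhere, with a range of 4.46 to 6.75. Zhx1-KO hnRNPA1 had 40.8 peaks per Mb on chromosome 11 and 19.998 elsewhere, with a range of 17.4 to 23.3. The ratio of chromosome 11 to the others was therefore 1.64 for ZHX1, 1.89 for control hnRNPA1 and 2.04 for Zhx1-KO hnRNPA1. The density was thus higher in each of the 3 lists, the Zhx1-KO list included. Counted per protein-coding gene instead of per Mb, the ratios were 0.998, 1.15 and 1.24, so for ZHX1 the number of peaks per gene on chromosome 11 was that of the other autosomes. How much DNA each chromosome gave to each library was not measured here, since the inputs were not analysed.

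The excess was in sequence that occurs once in the genome. The copy number of a peak was taken as the median number of times its 32-base words occur in GRCm38, and peaks at 2 or more copies were called multi-copy. Multi-copy peaks were 11.7% of the ZHX1 peaks of chromosome 11 (Wilson 95% interval 10.3 to 13.2, counting error only), 9.19% of control hnRNPA1 peaks (7.73 to 10.9) and 13.6% of Zhx1-KO hnRNPA1 peaks (12.7 to 14.6). On the other autosomes the lowest shares were 15.7%, 14.5% and 23.4%, so chromosome 11 lay below all of them in each list. Peaks below 2 copies were 1.93, 2.28 and 2.57 times as dense on chromosome 11 as elsewhere, whereas multi-copy peaks were 0.757, 0.695 and 0.877 times as dense. Peaks that lay at least 50% in soft-masked repeats were also a smaller share, at 21.9%, 19.5% and 25.3% of the 3 lists. The lowest shares on other autosomes were 23.1%, 21.6% and 32.4%. The density of these peaks per Mb was not computed. Median peak widths were 266, 262 and 279 bp, where those of the other autosomes ran from 252 to 264, 250 to 262 and 265 to 276 bp. The widths began at 228, 223 and 224 bp, and 35.0%, 31.7% and 24.8% of the peaks had exactly this smallest width. The peaks covered 535, 373 and 1512 kb of chromosome 11, or 0.451%, 0.314% and 1.27% of its sequence.

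Base composition and gene number follow each other along chromosomes and peak numbers follow both, so chromosome 11 was set beside 1 Mb bins of the same GC content elsewhere. In each of 16 GC bands of 1 percentage point, the mean of the chromosome 11 bins was above the mean of the other bins in all 3 lists. The Zhx1-KO hnRNPA1 list had 43.7 peaks per bin against 18.6 in the band starting at 40% GC, a ratio of 2.35, and 30.5 against 27.6 in the band starting at 51% GC, a ratio of 1.10. The latter band held only 2 bins of chromosome 11. Weighted over the bands, chromosome 11 had 1.39 times the ZHX1 peaks, 1.56 times the control hnRNPA1 peaks and 1.83 times the Zhx1-KO hnRNPA1 peaks of equal-GC sequence. The same ratio for each other autosome ran from 0.899 to 1.12, from 0.875 to 1.22 and from 0.832 to 1.06. Of 119 bins, 101, 95 and 117 exceeded the median of the other autosomes' bins in their own band. The excess was thus spread along the chromosome and not made by a few bins.

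**Figure D1:**
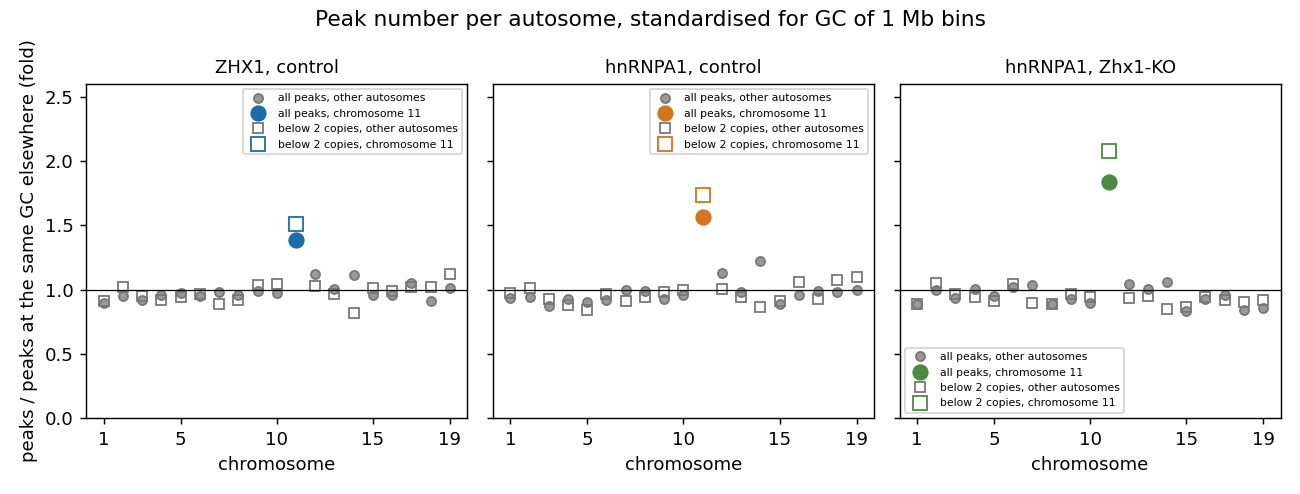
Ratio of the peaks of each autosome to the number at the same GC content on the other autosomes (y axis, fold) by chromosome (x axis) for the 3 lists, with filled circles for all peaks and open squares for peaks below 2 copies. Chromosome 11 stands at 1.39, 1.56 and 1.83 for all peaks and at 1.51, 1.74 and 2.08 below 2 copies, above the other autosomes, which reach at most 1.22.

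**Figure D2:**
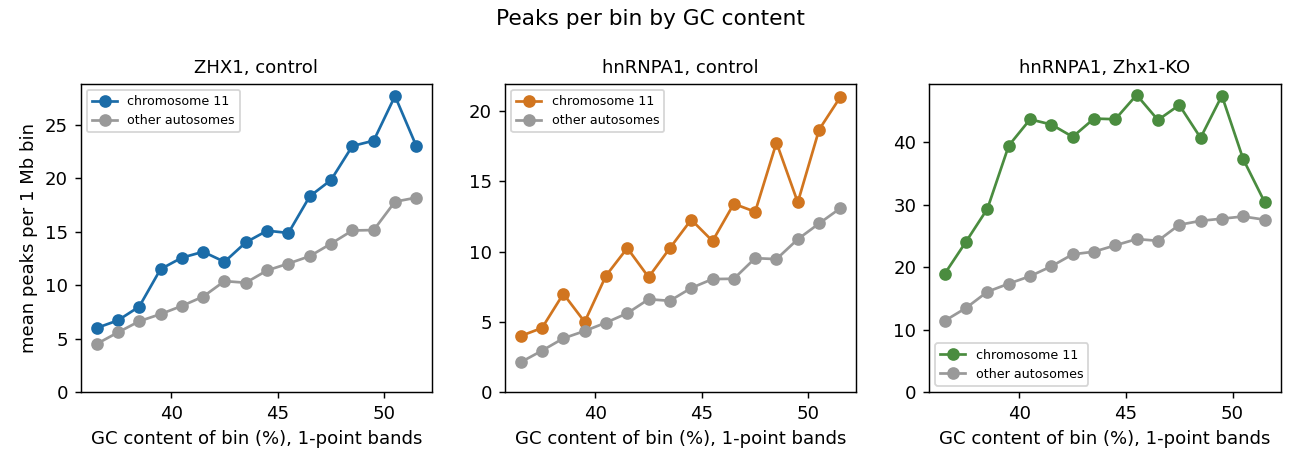
Mean peaks per 1 Mb bin (y axis) by GC content of the bin in bands of 1 percentage point (x axis), for chromosome 11 in colour and the other 18 autosomes in grey. The chromosome 11 line lies above the grey line in all 16 bands, and in the Zhx1-KO panel it lies between 37.3 and 47.6 peaks from 39% to 50% GC and falls to 30.5 at 51%, near the grey 27.6.

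Bins were also compared within classes of gene number. In bins with 0 to 4 protein-coding genes, the 36 bins of chromosome 11 held 32.8 ± 9.39 Zhx1-KO hnRNPA1 peaks (mean ± SD over bins) and the 1027 bins elsewhere 15.6 ± 6.51. In bins with 20 or more genes, the 32 bins of chromosome 11 held 45.8 ± 7.61 and the 249 others 26.2 ± 9.88. For ZHX1 the means were 9.67 and 6.83 in the gene-poor bins and 20.6 and 13.4 in the gene-rich bins. For control hnRNPA1 they were 6.72 and 4.03, then 14.0 and 8.96. Within the classes of gene number, that of 5 to 19 genes included, chromosome 11 bins held 1.42 to 2.11 times the peaks of other bins. Gene number still varied within a class, and counted per protein-coding gene the ZHX1 ratio was 0.998.

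Along the chromosome the 3 lists rose and fell only partly together. The chromosome was divided into 119 bins of 1 Mb with at least 50% sequence, numbered from the start of the assembly, whose first base of sequence is at 3.1 Mb. No bin was empty in any list. ZHX1 had 2 to 39 peaks per bin with a median of 15, control hnRNPA1 had 1 to 26 with a median of 11, and Zhx1-KO hnRNPA1 had 16 to 61 with a median of 41. The Zhx1-KO profile was the flattest, with a coefficient of variation over bins of 23.5% against 42.8% for ZHX1 and 47.8% for control hnRNPA1. This coefficient tends to fall as counts rise, and the Zhx1-KO list had the most peaks per bin. On the other autosomes it was likewise lowest in Zhx1-KO, at 46.2% against 59.5% and 70.3%. Variance exceeded the mean in all 3 lists, by 2.25, 2.77 and 2.49 times in the same order, and by 4.25, 3.27 and 2.85 times on the other autosomes. The lowest bins were poor in genes. The bins at 26 to 27 and 92 to 93 Mb held 2 ZHX1 peaks each, with 4 and 0 genes. The bin at 111 to 112 Mb held 1 control hnRNPA1 peak, and the bin at 14 to 15 Mb held 16 Zhx1-KO peaks, with 1 gene each.

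**Figure D3:**
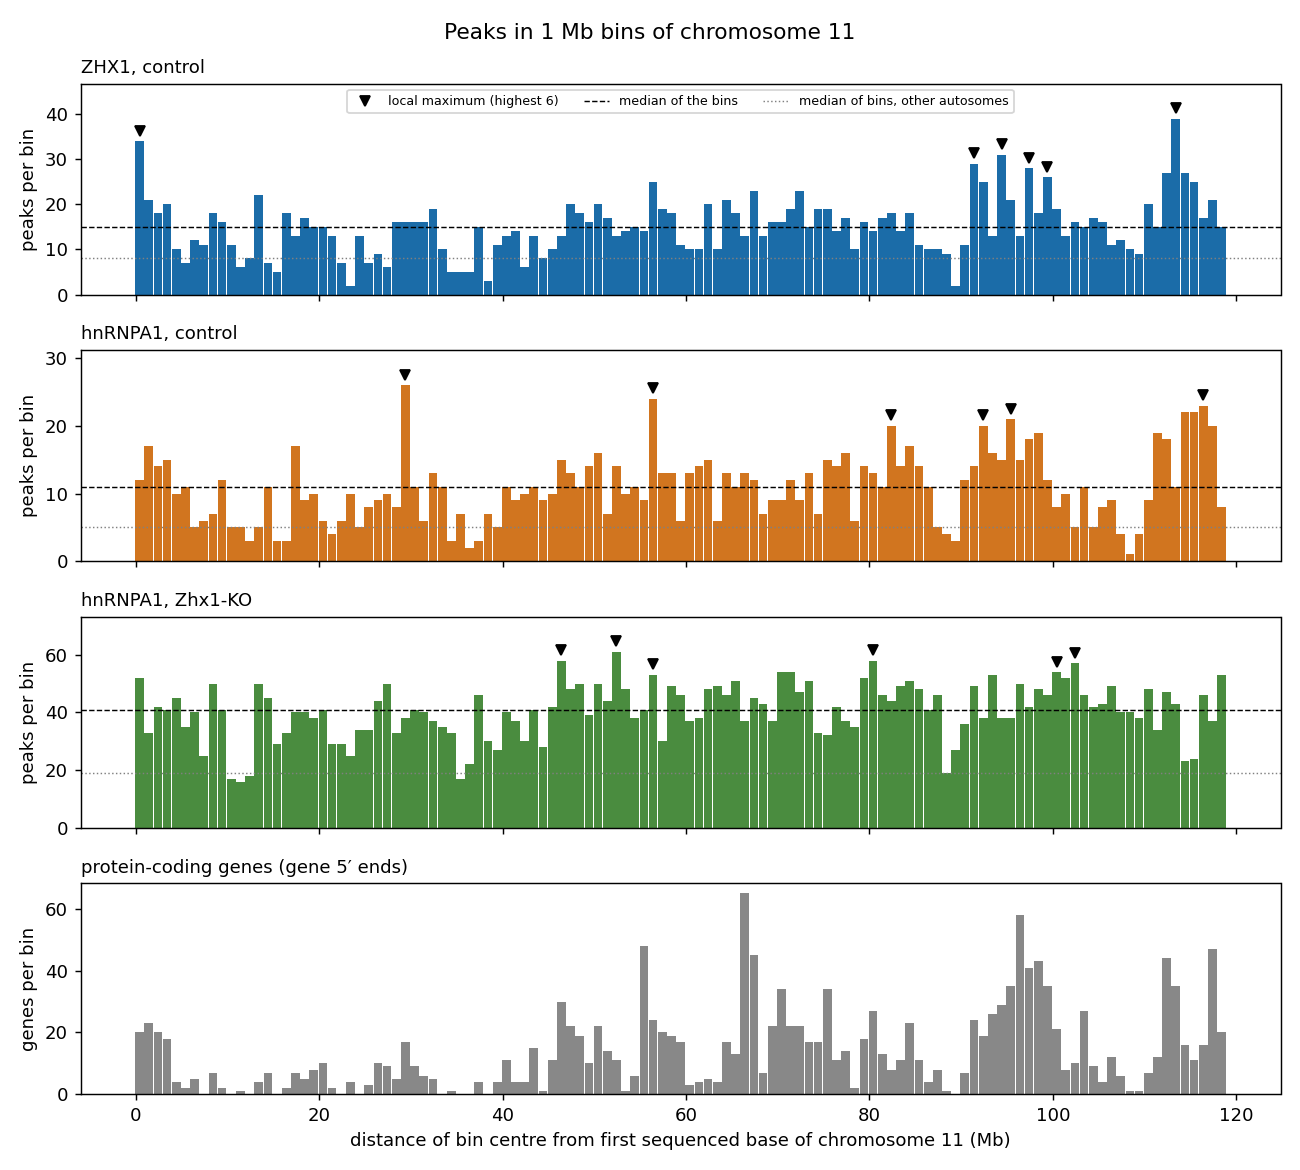
Peaks per 1 Mb bin of chromosome 11 for each list (y axis, peaks per bin) and protein-coding genes per bin in the lowest panel, by distance from the first sequenced base (x axis, Mb). Triangles mark the 6 highest local maxima, dashed lines the list's median (15, 11 and 41) and dotted lines the median bin of the other autosomes (8, 5 and 19).

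A local maximum was a bin at or above the 90th percentile of its list and above both neighbours, and the lists had 9, 8 and 9 of them. Only the bin at 59 to 60 Mb was a local maximum in all 3, with 25 ZHX1, 24 control hnRNPA1 and 53 Zhx1-KO hnRNPA1 peaks. Its peaks were named, among others, for the ubiquitin ligase gene Trim11 (4 control hnRNPA1 and 7 Zhx1-KO peaks), for the small GTPase gene Arf1 (3 control hnRNPA1 peaks), for the olfactory receptor gene Olfr225 (3 control hnRNPA1 peaks), for the Wnt ligand gene Wnt3a and the myosin phosphatase partner gene Mprip (4 ZHX1 peaks each), and for the transcripts 1700007J10Rik and 1810063I02Rik (4 Zhx1-KO peaks each). The bin at 3 to 4 Mb was a maximum of ZHX1 and Zhx1-KO hnRNPA1, with 34 and 52 peaks, and held 12 control hnRNPA1 peaks.

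Of the 6 highest ZHX1 maxima, 5 lay between 94 and 117 Mb, in bins of 24 to 41 genes. The highest, at 116 to 117 Mb, held 39 ZHX1 peaks and 35 genes, and its peaks were named most for BC018473 (5), the kinase gene Cdk3 (4), the glycosyltransferase gene Mgat5b (3) and the sphingosine kinase gene Sphk1 (3). The same bin held 11 control hnRNPA1 peaks, rank 50 of 119. The bin at 97 to 98 Mb held 31 ZHX1 peaks, 4 each named for 4933428G20Rik and Tbx21, the T-box factor of T helper cells, 3 for the splicing gene Cwc25 and 2 for Arhgap23. The bin at 94 to 95 Mb held 29, named for Gm11544 (5), the antiproliferative gene Tob1 (4), Wfikkn2 (3) and Ankrd40 (2). The bin at 100 to 101 Mb held 28, named for Mir7116 (4), Nt5c3b (3), the signal transducer gene Stat5b (3) and the citrate lyase gene Acly (2), and the bin at 102 to 103 Mb held 26, named for Ccdc43, Gm11627 and the kinesin gene Kif18b (3 each) and Adam11 (2). In the bin at 3 to 4 Mb, 13 of the 34 ZHX1 peaks were multi-copy, 11 were named for the pseudogene Pisd-ps1, 8 for Sfi1, 4 for the oxysterol-binding gene Osbp2 and 2 for Eif4enif1, the transporter of the cap-binding protein eIF4E. The other 5 of these 6 bins held 0 to 2 multi-copy ZHX1 peaks.

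Besides the shared bin, no control hnRNPA1 maximum was a ZHX1 maximum, although 5 of the 12 highest bins were common to both lists. The highest, at 32 to 33 Mb, held 26 peaks, named for Smim23 (6), Gm12108 (4), the F-box gene Fbxw11 (3) and the podosome adaptor gene Sh3pxd2b (3), and had 16 ZHX1 peaks, rank 45. The bin at 119 to 120 Mb held 23, named for Mir1932 and the mTORC1 subunit gene Rptor (4 each), Baiap2 (3) and the Polycomb gene Cbx8 (2). The bin at 98 to 99 Mb held 21 and as many ZHX1 peaks (rank 15), and was named for the adaptor gene Grb7 (3) and, with 2 each, the replication licensing gene Cdc6, the Mediator gene Med24 and the clock gene Nr1d1. The bin at 85 to 86 Mb held 20, named for Usp32 (4), Bcas3 (3), the limb and lung T-box gene Tbx4 (3) and 2610027K06Rik (2). The bin at 95 to 96 Mb held 20 and 25 ZHX1 peaks (rank 9), and was named for Nxph3 (4), the prohibitin gene Phb (3), the homeobox gene Dlx4 (2) and the integrin gene Itga3 (2).

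Zhx1-KO hnRNPA1 maxima drew their peaks from 9 to 27 gene names per bin, with the fewest at 105 to 106 Mb and the most at 49 to 50 Mb. The highest bin, at 55 to 56 Mb, held 61 peaks, of which 21 were named for the glycine receptor gene Glra1, 15 for the neuromedin receptor gene Nmur2, 5 for the cadherin gene Fat2 and 4 for the annexin gene Anxa6, and it held 13 ZHX1 and 14 control hnRNPA1 peaks. The bin at 105 to 106 Mb held 57 Zhx1-KO peaks and 5 control hnRNPA1 peaks, and its Zhx1-KO peaks were named for Cyb561 (15), the scaffold gene Tanc2 (14), March10 (12) and Efcab3 (6). The bin at 83 to 84 Mb held 58, named among others for Slfn1 (8), the chemokine gene Ccl6 (4) and Heatr6 (4). The bin at 49 to 50 Mb also held 58, named for Rasgef1c (6), Olfr1389 (5), the deadenylase gene Cnot6 (4) and Rnf130 (4), with 13 of them multi-copy. The bin at 103 to 104 Mb held 54, 7 each for Gm884, the membrane fusion gene Nsf and the Wnt ligand gene Wnt3, and 6 for Arhgap27. The bins at 55 to 56, 49 to 50 and 83 to 84 Mb were at ranks 26, 20 and 35 in control hnRNPA1.

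Across the 119 bins the control lists followed base composition more closely than they followed each other. ZHX1 and control hnRNPA1 counts rose with GC content (Spearman rho = 0.73 and 0.71, Pearson r = 0.73 and 0.71) and with gene number (rho = 0.67 and 0.64). Zhx1-KO hnRNPA1 followed GC weakly (rho = 0.33) and gene number moderately (rho = 0.53). On the other autosomes, over 2284 bins, the rho of Zhx1-KO hnRNPA1 with GC was 0.63, close to 0.63 for ZHX1 and 0.64 for control hnRNPA1. Between lists on chromosome 11, rho was 0.53 for ZHX1 with control hnRNPA1, 0.36 for ZHX1 with Zhx1-KO hnRNPA1 and 0.27 for hnRNPA1 in the 2 genotypes, against 0.54, 0.56 and 0.55 on the other autosomes. Given GC and gene number, the partial rho between lists on chromosome 11 was -0.035, 0.075 and -0.050. These are descriptions without a test, because the bins share the chromosome, its base composition and its mappability.

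At the level of single positions the lists shared little. A peak was shared when it overlapped a peak of another list by at least 1 bp, and over the other 18 autosomes 4.06% of control hnRNPA1 peaks overlapped a ZHX1 peak, 4.42% of control hnRNPA1 peaks and 4.23% of ZHX1 peaks overlapped a Zhx1-KO hnRNPA1 peak. On chromosome 11, 43 of 1295 control hnRNPA1 peaks overlapped a ZHX1 peak, which is 3.32% (2.47 to 4.44) and is 2.39% of the 1799 ZHX1 peaks, where the other autosomes gave 2.54%. Between genotypes, 32 of 1295 control hnRNPA1 peaks overlapped a Zhx1-KO hnRNPA1 peak, which is 2.47% (1.76 to 3.47) and 0.661% of the 4839 Zhx1-KO peaks, where the other autosomes gave 1.28%. Between ZHX1 and Zhx1-KO hnRNPA1, 73 of 1799 ZHX1 peaks were shared, which is 4.06% (3.24 to 5.07) and 1.51% of the Zhx1-KO peaks, where the other autosomes gave 1.96%. In all, 93.7% of ZHX1, 94.4% of control hnRNPA1 and 97.9% of Zhx1-KO hnRNPA1 peaks of chromosome 11 overlapped neither other list, and 3 peaks of each list overlapped both.

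The pair that shared least, for its number of peaks, was hnRNPA1 with and without ZHX1. As a scale, a window of the first list's median width was placed at every position of the chromosome and the share of positions that touched a peak of the second list was counted. For control hnRNPA1 in ZHX1 peaks this share was 0.846%, and the observed 3.32% was 3.93 times as high. For ZHX1 in Zhx1-KO hnRNPA1 peaks it was 2.35%, and the observed 4.06% was 1.73 times as high. For control hnRNPA1 in Zhx1-KO hnRNPA1 peaks it was 2.34% and the observed 2.47% only 1.06 times as high, with an interval that included the window share. On the other autosomes the 3 ratios were 8.02, 3.78 and 3.97 in the same order. The share of 2.47% was below that of each of the other 18 autosomes, the lowest of which had 2.79%. Among peaks below 2 copies this no longer held, since 24 of 1176 control hnRNPA1 peaks of chromosome 11 were shared, or 2.04% (1.38 to 3.02), and 1.73% elsewhere, with 12 of the 18 autosomes lower. The window ratio was then 0.874 on chromosome 11 and 1.55 elsewhere. The window shares were not restricted in this way and still counted every position and every peak of the second list, multi-copy ones included. These ratios are therefore not on a like scale. For ZHX1 the order turned among these peaks, with 2.98% of control hnRNPA1 peaks in ZHX1 peaks against 1.77% elsewhere, and 3.46% of ZHX1 peaks in Zhx1-KO peaks against 2.21% elsewhere, in both cases above each of the 18 others. Relative to the same unrestricted window shares, these pairs were about as high or lower on chromosome 11. Their ratios were 3.52 against 3.49 elsewhere for control hnRNPA1 in ZHX1 peaks and 1.47 against 1.98 for ZHX1 in Zhx1-KO peaks.

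**Figure D4:**
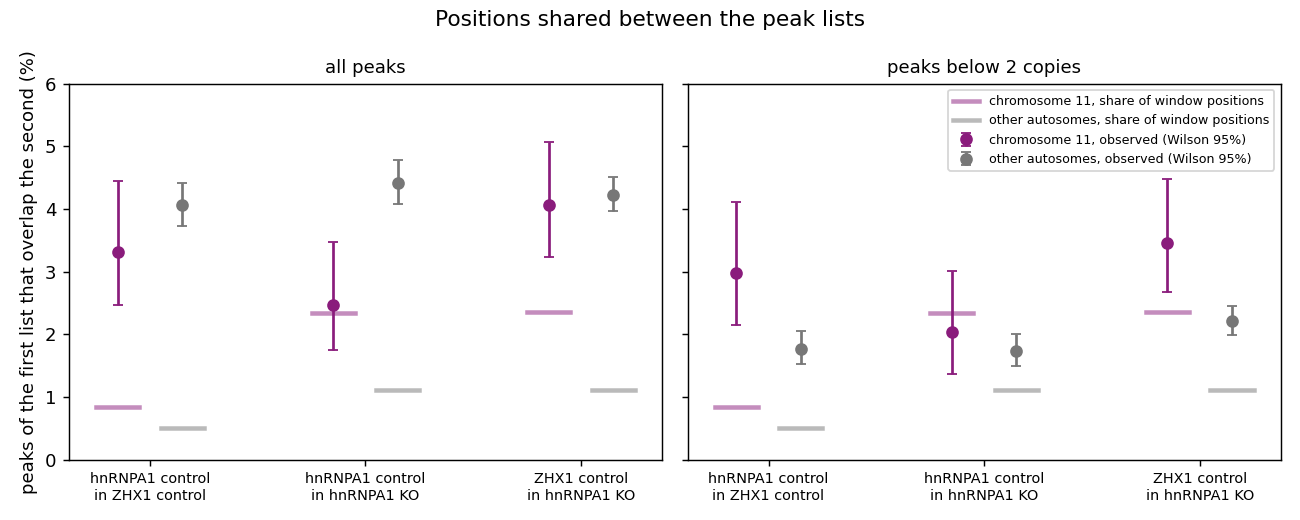
Share of the peaks of the first list that overlap the second (y axis, %) for 3 pairs of lists (x axis), with points and Wilson 95% intervals for chromosome 11 and for the other autosomes pooled, and horizontal bars for the share of all window positions that touch the second list. On chromosome 11 the point for hnRNPA1 in both genotypes lies at its bar (2.47% and 2.34%), while the other pairs lie above theirs.

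A gap of up to 1 kb was also allowed. Of control hnRNPA1 peaks, 6.72% (5.48 to 8.21) had a ZHX1 peak within 1 kb, where 3.79% of window positions did, and 10.4% (8.88 to 12.2) had a Zhx1-KO hnRNPA1 peak within 1 kb, where 10.1% of positions did. Of ZHX1 peaks, 11.3% (9.90 to 12.8) had a Zhx1-KO hnRNPA1 peak within 1 kb, and this interval included the 10.1% of positions. When 50% of both peaks had to overlap, 23, 19 and 39 positions were left for ZHX1 with control hnRNPA1, hnRNPA1 in both genotypes, and ZHX1 with Zhx1-KO hnRNPA1.

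By gene name the lists looked far more alike than by position. The lists named 864, 731 and 1278 genes on chromosome 11, and 416 of 1499 names occurred in all 3. Of the control hnRNPA1 names 82.9% recurred in Zhx1-KO hnRNPA1 and 63.6% in ZHX1, and of the ZHX1 names 83.2% recurred in Zhx1-KO hnRNPA1. The Zhx1-KO list alone held 1278 of the 1499 names, so a high recurrence in it does not by itself show agreement. There were 49 names in both control lists but not in Zhx1-KO. Names say little about place, because only 36.5%, 36.8% and 37.2% of the peaks with a matched name touched the body of the gene they were named for, and the rest lay a median of 23.4, 24.98 and 29.8 kb from it. Nmur2, named for 13 ZHX1, 8 control hnRNPA1 and 40 Zhx1-KO hnRNPA1 peaks, had 0, 0 and 1 peak in its 16.0 kb body. Kcnj2, the gene of the inward rectifier potassium channel of heart muscle, was named for 8, 1 and 35 peaks and had 0, 0 and 1 in its 10.7 kb body. Sgcd, the δ-sarcoglycan gene of the muscle membrane, is 1093 kb long and had 8, 9 and 29 peaks in its body.

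The 43 positions of ZHX1 with control hnRNPA1 had a median of 199 common bases, and 35 were below 2 copies. By centre of the ZHX1 peak, 21 were in introns, 14 intergenic, 4 in coding exons, 3 in UTRs and 1 in a noncoding exon, and 8 were within 2 kb of a start site. The widest common stretch below 2 copies was at Gm11545 (384 bp, intergenic), and the rest of the widest 10 were at Nsg2, a neuronal endosome gene (291 bp), Gm12130, Sdk2, Gas7, Sphk1, Olfr412, the Drg1 intron, Larp1, an RNA-binding regulator of translation, and the zinc finger gene Unk (215 bp). The Sphk1 position lay in the UTR of the ubiquitin enzyme gene Ube2o. Between hnRNPA1 in the 2 genotypes, 24 of 32 positions were below 2 copies, and the widest were 19.8 kb from the Adam11 start site (432 bp), Psmd11 (356 bp), Cenpx in an intron of Aspscr1 (343 bp), Cyth1 (289 bp), Elac2, 2900052L18Rik, the GABA receptor gene Gabra6, Selenom in an intron of the smooth muscle gene Smtn, Car4 in an intron of Usp32, and the adenylyl cyclase gene Adcy1 (237 bp). Between ZHX1 and Zhx1-KO hnRNPA1, 55 of 73 were below 2 copies, and the widest was at the start of Sfi1 (602 bp, 0.099 kb from the start site). The others of the widest 10 were at Rel, 39.6 kb from its start site (430 bp), Lrrc75a (412 bp), the Drg1 intron, Ggnbp2os, the growth factor receptor gene Egfr, Cyb5d2 in a coding exon of Ankfy1, Cyb561 in an intron of Tanc2, Dock2, and Chad in an intron of Acsf2 (287 bp). Of these 73 positions, 17 were within 2 kb of a start site and 13 had a ZHX1 peak of at least 60% GC, among them positions at Hoxb2, the tumour suppressor gene Nf2, Sap30l, Prkar1a, the regulatory subunit gene of protein kinase A, and Shpk, which were chosen after their values were seen. At Tbx2 and Meis1, 2 transcription factor genes of the developing heart, the common stretch was only 73 and 20 bp.

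The widest peaks of both control lists were mostly held by 1 list, whereas most of the widest Zhx1-KO hnRNPA1 peaks were shared. Among all peaks of the chromosome, 93.7% of ZHX1, 94.4% of control hnRNPA1 and 97.9% of Zhx1-KO hnRNPA1 peaks overlapped neither other list. Sharing was thus more frequent among the few widest peaks named here than among all peaks. The widest ZHX1 peak was the 995 bp peak at the start of Sfi1 (chr11:3193148-3194142), which Zhx1-KO hnRNPA1 shared. The next were at Kpnb1, the importin β gene (822 bp), 4931440F15Rik (817 bp), Abca13 (764 bp) and Mir6921 in an intron of Rai1 (749 bp), none shared. For control hnRNPA1 they were at Srebf1, a lipid regulator gene, in an intron of Tom1l2 (717 bp), G3bp1, a stress granule gene (713 bp), Olfr412 (710 bp, shared with ZHX1), Dnah2 (656 bp) and Map2k6 (609 bp). For Zhx1-KO hnRNPA1 they were near Lif, the gene of leukaemia inhibitory factor (1050 bp), Abca13 (974 bp), Lrrc75a (926 bp, shared with ZHX1), Rufy1 (910 bp) and in the coding exon of Olfr402 (910 bp). The Lif and Abca13 peaks were shared with control hnRNPA1. The Abca13 and Rufy1 peaks of Zhx1-KO and the G3bp1 peak of control hnRNPA1 were multi-copy, with medians of 629, 351 and 2 copies.

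Introns held 48.4% (46.1 to 50.7), 47.0% (44.3 to 49.8) and 46.6% (45.2 to 48.1) of the centres in ZHX1, control hnRNPA1 and Zhx1-KO hnRNPA1, where 46.8% of the bases of chromosome 11 are intronic. Coding exons held 4.22%, 4.48% and 5.04% of centres but 2.31% of bases, which is 1.83, 1.94 and 2.18 times their share of bases. On the other autosomes the coding-exon ratios were higher in each list, at 2.29, 2.02 and 2.59. Regions within 2 kb of a protein-coding start site held 14.6% (13.0 to 16.3), 13.2% (11.5 to 15.2) and 12.9% (11.9 to 13.8) of centres and 10.4% of bases, or 1.39, 1.26 and 1.23 times. The same ratios for the other autosomes were 1.62, 1.39 and 1.38, each above the chromosome 11 value. Intergenic sequence held 42.2%, 42.5% and 43.3% of centres and 47.0% of bases.

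Windows of the median width around the peak centres had a mean GC content of 47.6% for ZHX1, 47.5% for control hnRNPA1 and 48.4% for Zhx1-KO hnRNPA1, whereas all non-overlapping windows of these widths on chromosome 11 averaged 43.3%. TAGGG, the DNA form of the hnRNPA1-favoured core, was searched on both strands and found in 36.3% (33.7 to 39.0) of control hnRNPA1 windows, 35.0% (33.7 to 36.3) of Zhx1-KO hnRNPA1 windows and 33.9% (31.8 to 36.1) of ZHX1 windows. All windows of the chromosome held it at 31.1%, 32.7% and 31.5% for these widths, and at 33.8%, 35.6% and 33.7% when weighted to the GC content of the peaks. The interval of each list included its GC-weighted value. CCAAT, the box bound by NF-Y, was found on either strand in 31.4%, 30.4% and 33.7% of ZHX1, control hnRNPA1 and Zhx1-KO hnRNPA1 windows and in 31.5%, 31.2% and 32.4% of GC-weighted windows. All windows held it at 33.9%, 33.4% and 35.1%. The Zhx1-KO interval (32.43 to 35.09) lay between its GC-weighted 32.38% and the 35.13% of all windows, so the direction depended on the background. The G-quadruplex pattern, in which 4 stretches of 3 or more G are spaced by 1 to 7 bases on either strand, was in 4.34% (3.49 to 5.38), 4.48% (3.48 to 5.75) and 5.85% (5.22 to 6.55) of peak windows. These intervals included the shares of all windows (5.08%, 5.01% and 5.34%) and lay below those of GC-weighted windows (8.19%, 7.71% and 8.95%). A match gives only the letters in the window and no binding site.

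Among genes, 15.7% of the 1637 protein-coding genes of chromosome 11 had a ZHX1 peak within 2 kb of a start site. The share was 10.6% for hnRNPA1 in control and 33.2% for hnRNPA1 in Zhx1-KO cells. The Zhx1-KO list was also the longest on this chromosome, with 4839 peaks against 1799 for ZHX1 and 1295 for control hnRNPA1. There were 25 genes with such a peak in both control lists but not in Zhx1-KO (1.53%), 20 in all 3 (1.22%) and 390 in Zhx1-KO only (23.8%). The gene lists below were read against these shares, and with the small size of most lists the counts carry a wide counting error. Every annotated start site was used, internal ones included, and with the 5′ end of the gene alone 161, 85 and 360 genes had a peak in place of 257, 173 and 543. Regulators of heart and mesoderm had 5, 1 and 9 of 16 genes with a peak in ZHX1, control hnRNPA1 and Zhx1-KO hnRNPA1. Tbx2, Meis1 and the growth factor gene Fgf18 had ZHX1 and Zhx1-KO peaks, Tbx4 had peaks of hnRNPA1 in both genotypes, and Myocd, the myocardin gene, Fgf11, Lhx1 and Mnt were among 5 with Zhx1-KO peaks only. The Myocd peak lay 1.22 kb from an internal start site and not at the 5′ end of the gene. The Lhx1 peak likewise lay at an internal start site. At Tbx4 the control peak lay 1.34 kb from a start site and the nearest Zhx1-KO peak 1.04 kb from it, without overlap. The list of sarcomere and calcium-handling genes, which also holds potassium channel genes such as Kcnj12 and Kcnj16, had 7, 1 and 9 of 18. The calcium channel subunit gene Cacnb1 had peaks in both control lists and not in Zhx1-KO, and Myl4, the atrial light chain gene, Cacng1, Kcnj12 and Kcnj16 were among 6 with Zhx1-KO peaks only. The Kcnj16 peak had a median of 3070 copies and lay at the limit of 2 kb.

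Wnt pathway genes had 3, 1 and 2 of 8, with the kinase gene Csnk1d in both control lists and Wnt9b and Axin2 in Zhx1-KO only. RNA processing genes had 4, 3 and 8 of 16. Msi2, an RNA-binding translational regulator, was in all 3, and Hnrnpab, Srsf2, Ddx5 and Eif4a1 were in Zhx1-KO only. Chromatin regulators had 6, 3 and 11 of 24. The Polycomb gene Pcgf2 was in all 3, the remodeller gene Chd3 was in both control lists only, and the demethylase gene Kdm6b, the corepressor gene Ncor1 and Kat7 were among those in Zhx1-KO only. Of the 4 Ncor1 peaks, 1 was multi-copy, at 3 copies. The Hoxb cluster had 1, 0 and 3 of 10, with Hoxb5 and Hoxb9 in Zhx1-KO only. Among Sfi1 and its neighbours, Sfi1 was in all 3 lists, the zinc finger gene Patz1 was in both control lists, and Smtn and Inpp5j were in Zhx1-KO only, giving 3, 2 and 3 of 9. The only control hnRNPA1 peak at a start site of Sfi1 was multi-copy, at 2 copies. A gene counted in more than 1 list need not share a position. Among genes named for both control lists only, the control peaks did not overlap at Cacnb1, Csnk1d and Krt19. They did overlap at Chd3, Patz1 and Olfr412. At Cacnb1, Csnk1d, Chd3, Patz1 and Olfr412 these control peaks lay near internal start sites and not at the 5′ end of the gene. So did the control hnRNPA1 peak of Krt19 and the Zhx1-KO peaks of Myl4 and Ddx5. At Pcgf2 the ZHX1 peak lay 0.028 kb and the control hnRNPA1 peak 0.851 kb from a start site, with the Zhx1-KO peaks at 2 other start sites.

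The gene families below are given by their counts, which for most are too small to set them apart from all genes. Type I keratin genes had 1, 2 and 6 of 27, with Krt19 in both control lists and Krt13, Krt24, Krt26 and Krt32 among those in Zhx1-KO only. Myosin heavy chain genes had 0, 0 and 2 of 7 (Myh10 and Myh13), and of these Myh10 lies outside the skeletal cluster. The chemokine cluster had 1, 0 and 3 of 11 (Ccl4, Ccl6 and Ccl11 in Zhx1-KO only). Cytokine genes, of which Lif, Osm and Il12b lie far from the others, had 0 of 9 in each list. Zinc finger genes named Zfp had 0, 1 and 8 of 21, with Zfp2, Zfp354a, Zfp616 and Zfp652 among those in Zhx1-KO only. Olfactory receptor genes had 8, 5 and 37 of 80, or 10.0%, 6.25% and 46.2%, and so lay below the share of all genes in both control lists and above it in Zhx1-KO. By peaks in the gene body they lay below all genes in each list, at 11.25%, 7.5% and 42.5% against 32.1%, 26.0% and 53.3%. By promoter peaks, 30 of the 80 were in Zhx1-KO only, Olfr10, Olfr1375, Olfr1377 and Olfr1378 among them. Olfr412 was in both control lists, and Olfr1388 was in all 3, where the ZHX1 and Zhx1-KO peaks were multi-copy.

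**Figure D5:**
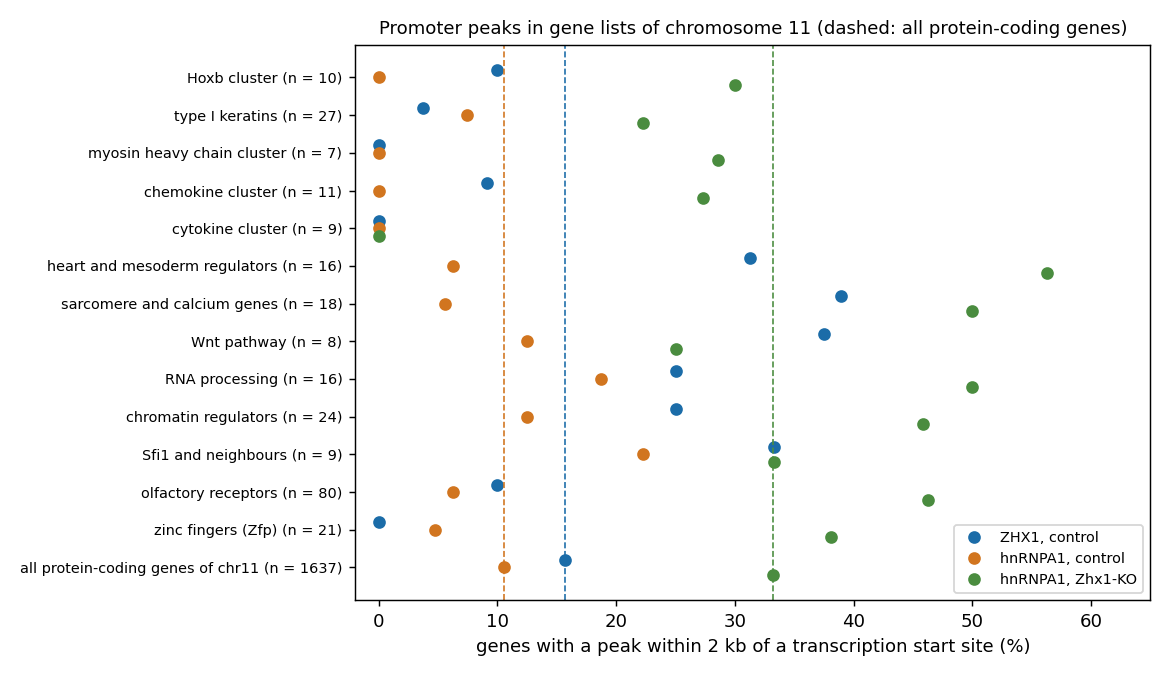
Share of the genes of each list with a peak within 2 kb of a start site (x axis, %) for the 13 gene lists and for all 1637 protein-coding genes of chromosome 11 (y axis, number of genes in brackets), with 1 point per peak list and dashed lines at the share of all genes (15.7%, 10.6% and 33.2%). Zhx1-KO, the longest of the peak lists, has the highest points in most gene lists. Olfactory receptor genes lie left of the line for both control lists and right of it for Zhx1-KO.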

How the data were processed

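ChIP-seq was analysed for ZHX1 in 46C-Ctrl and for hnRNPA1 in 46C-Ctrl and Zhx1-KO cardiac progenitors, with 1 library each. Per the labels and the study's methods, reads were trimmed with cutadapt 1.18 to at least 50 bases and mapped to GRCm38 (mm10) with Bowtie2 2.3.5.1, and nonuniquely mapped reads and duplicates were removed. deepTools 3.3.0 served for display. BWA 0.7.12-r1039 is also named without its role. No source used here gives the peak caller, its threshold or the use of the inputs. The authors deposited peak positions with a gene name and no score, so read depth is unknown and widths and positions were the only measured values (a unit other than counts or signal).

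Peaks were counted in 1 Mb bins by their centre, annotated with GENCODE M21 on the same build and compared with RefSeq GRCm38.p6 sequence. A promoter peak overlapped 2 kb around a protein-coding start site. Shares carry Wilson 95% intervals, which cover counting error only. Python 3.11.15 with numpy 2.4.6, pandas 2.3.3 and scipy 1.17.1 was used, and overlaps and copy counts were tested on simulated data. Genes were named as the 4 most frequent names of the 6 highest maxima, those of positions in all 3 lists, of the 5 widest peaks, of the 10 widest shared positions below 2 copies, and up to 4 members per class of each gene list. Members and lists were chosen with earlier results of these data known. Gene list members that GENCODE does not place on chromosome 11 were left out. Some genes that the rule names are not reported here. Alternatives tried were the overlap rule, width, copy number, bin size, GC content, gene number and promoter definition.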

Additional observations from a re-analysis of the deposited data

How the results depend on the processing

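No paired analysis was possible because each of the 3 ChIP groups had 1 library, and for the same reason no replicate could be left out. The density ratios of chromosome 11 (1.64 for ZHX1, 1.89 for control hnRNPA1 and 2.04 for Zhx1-KO hnRNPA1) became 1.74 for ZHX1 and 2.18 for Zhx1-KO in the wider 50% of the peaks, 1.93, 2.28 and 2.57 below 2 copies, 1.39, 1.56 and 1.83 at equal GC, and 1.51 and 1.74 for the control lists with both together, which was added after seeing the data. Per protein-coding gene they were 0.998, 1.15 and 1.24, so that the ZHX1 ratio came to lie just below 1. Shared percentages for control hnRNPA1 in ZHX1, control hnRNPA1 in Zhx1-KO hnRNPA1 and ZHX1 in Zhx1-KO hnRNPA1 were 1.78, 1.47 and 2.17 with 50% overlap of both peaks, 6.72, 10.4 and 11.3 within 1 kb, and 2.47, 1.08 and 2.01 with lists cut to equal length by width. The wider 50% gave 3.23 for the last pair. Without 3 to 7 Mb no share left its interval. The highest bin held 22, 14 and 34 peaks in the wider 50%, which has fewer peaks, and its place moved in the control lists. With edges moved by 0.5 Mb the highest bin of control hnRNPA1 lay at 117.5 Mb (28 peaks) and that of Zhx1-KO hnRNPA1 at 73.5 Mb (64 peaks). The rho between ZHX1 and control hnRNPA1 over bins was 0.75 in 2 Mb bins, 0.65 below 2 copies and -0.035 given GC and gene number. For ZHX1 with Zhx1-KO it was 0.53 below 2 copies and 0.075 given GC and gene number, and for hnRNPA1 in both genotypes 0.45 and -0.050. Genes with a promoter peak (257, 173 and 543) were 111 for control hnRNPA1 within 1 kb, 161, 85 and 360 at the gene's 5′ end only, and 728, 615 and 1088 by the deposited name. The cause of these changes was not tested.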
